A study of Mus musculus with 8 samples.

Results

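Monocytes and tissue macrophages are marked here by 34 genes, taken as a list and measured in 2 sorted bone marrow populations of Vav-Etv2 and control mice. A gene belongs to the list when a non-control probe of the array carries its listed symbol, older or current. All 34 were found, on 43 probes, and 32 of them passed the filter on dim probes among the 23231 features tested in the study. Timd4 and Cd163 did not pass. The Vav-Etv2 mice carry an Etv2 transgene that a second transgene, Vav-iCre, turns on. The Vav promoter is active in blood cells. Etv2 belongs to the ETS family and directs early mesoderm of the embryo towards blood and vessel lineages. All mice were 6 weeks old and of a mixed strain background (B6/CBA and others). The labels call the other mice control only and do not say which transgene, if any, they carried. The KSL sort took c-Kit+ Sca-1+ lineage- cells, among which are the stem cells. The Gr sort took Gr-1+/Mac-1+ cells, mostly granulocytic, and can also take in monocytes, since these carry Mac-1 and, in part, Gr-1. RNA was read on 8 one-colour arrays, 2 for each of 4 groups: Vav-Etv2 KSL, control KSL, Vav-Etv2 Gr and control Gr cells. Whether the arrays stand for separate animals or pools is not stated, so p-values speak only for the spread among these samples, which may be technical.

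Monocytes arise in the marrow from progenitors under the transcription factors Irf8 and Klf4, leave it through the chemokine receptor Ccr2, and depend with macrophages on the growth factor receptor Csf1r. Macrophages that stay in the marrow take up dying cells and the nuclei of red cell precursors, supply iron from haem, and contact stem cells through adhesion molecules such as Vcam1. They are known by receptors for bacteria, sugars, antibodies and dying cells, and by secreted complement C1q.

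The 8 arrays shared 1 slide and 1 scan, with KSL samples on 1 slide row and Gr samples on another, so that slide row and cell type cannot be told apart. The 75th percentile of the signal lay between 136 and 300, the share of probes well above background ranged from 47.7% to 55.5%, and no probe was saturated. Levels below are log2 signals relative to the array's 75th percentile, and a level is compared between samples, never between genes. The label of each cell type was checked against marker lists. The median of 8 stem and progenitor genes lay between -0.87 and -0.39 in Gr arrays. In KSL arrays it stood at 2.85 and 2.87 in Vav-Etv2 and at 4.14 and 4.14 in control cells. All 8 genes had negative differences between Vav-Etv2 and control KSL cells (median -1.11), and 0 passed (limma, smallest adjusted p = 0.319). The median of 13 neutrophil genes lay between 8.77 and 10.17 in Gr and between 1.5 and 6.22 in KSL arrays. Etv2 stood at 0.19 and -1.24 in Vav-Etv2 KSL arrays and at -4.37 and -4.73, not well above background, in control KSL arrays. In Gr cells it stood at -0.55 and -1.29 in the Vav-Etv2 arrays, at -4.48, not well above background, in control 1, and at -0.54, well above background, in the array labelled Gr control 2. A second Etv2 probe stood at -2.33 and -1.88 in the Vav-Etv2 Gr arrays and at -5.81, not well above background, in Gr control 1. In Gr control 2 it stood at -0.85, well above background and above both Vav-Etv2 Gr arrays. In KSL cells it stood at 0.01 and -2.53 in Vav-Etv2 and at -5.96 and -6.35, not well above background, in control arrays. The array labelled Gr control 2 was used under its label in each comparison of Gr cells.

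The upstream DNA of 5 members is shown because these genes carry the differences described below: Clec4f was well above background on 2 of the 8 arrays, both from Vav-Etv2 KSL cells, Ccr2 was 10.1-fold apart between genotypes in KSL cells, Axl was 3.81-fold apart in Gr cells, and C1qb and C1qc moved together between arrays. Each line holds the 250 bases before the RefSeq start, on the gene's own strand of build GRCm38.p6, with capitals marking every GGAA, the core letters bound by ETS factors, or its reverse complement TTCC. The windows are chr6:83656117-83656366 (minus strand) for Clec4f, chr9:124101933-124102182 (plus strand) for Ccr2, chr7:25788734-25788983 (minus strand) for Axl, chr4:136886201-136886450 (minus strand) for C1qb and chr4:136892915-136893164 (minus strand) for C1qc.
Clec4f: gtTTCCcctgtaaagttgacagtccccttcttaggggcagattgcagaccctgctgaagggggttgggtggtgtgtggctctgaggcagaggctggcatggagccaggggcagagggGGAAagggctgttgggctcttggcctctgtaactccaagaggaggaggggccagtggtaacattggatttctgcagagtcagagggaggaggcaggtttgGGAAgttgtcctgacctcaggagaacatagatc
Ccr2: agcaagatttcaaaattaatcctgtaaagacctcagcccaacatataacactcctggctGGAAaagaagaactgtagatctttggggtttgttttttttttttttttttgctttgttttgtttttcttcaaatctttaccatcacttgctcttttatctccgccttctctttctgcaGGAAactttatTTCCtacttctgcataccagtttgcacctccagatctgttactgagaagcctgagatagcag
Axl: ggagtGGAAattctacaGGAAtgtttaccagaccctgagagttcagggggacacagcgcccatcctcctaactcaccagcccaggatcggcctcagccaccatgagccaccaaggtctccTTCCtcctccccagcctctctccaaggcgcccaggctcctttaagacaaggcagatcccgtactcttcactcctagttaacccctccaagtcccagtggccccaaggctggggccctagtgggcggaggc
C1qb: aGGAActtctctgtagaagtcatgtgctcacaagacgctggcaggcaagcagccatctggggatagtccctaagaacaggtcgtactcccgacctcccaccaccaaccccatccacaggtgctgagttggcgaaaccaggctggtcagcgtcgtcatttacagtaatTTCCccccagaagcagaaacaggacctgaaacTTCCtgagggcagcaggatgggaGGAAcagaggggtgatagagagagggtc
C1qc: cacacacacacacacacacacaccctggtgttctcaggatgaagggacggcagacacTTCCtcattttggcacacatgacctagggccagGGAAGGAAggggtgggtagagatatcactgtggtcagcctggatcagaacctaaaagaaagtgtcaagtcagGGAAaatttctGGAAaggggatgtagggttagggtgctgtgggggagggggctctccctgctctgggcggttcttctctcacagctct

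Such RefSeq windows were taken for 26 of the 34 members, 29 windows in all. Windows on chromosome 18, where Csf1r and Cd14 lie, were left out for the members. That filter was not applied to the set of all windows. GGAA was searched on both strands and lay in 29 of these 29 windows, against 93.4% of all 32851 promoter windows of that length, with a median of 3 matches in both sets. The longer AGGAAG, which contains GGAA, lay in 15 of the 29 windows (51.7%), against 29.5% of all windows. Clec4f and Ccr2 had 3 GGAA matches each and 0 of AGGAAG, Axl had 3 and 1, C1qb had 4 and 1, and C1qc had 5 and 2. These counts describe letters and not binding.

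In Vav-Etv2 KSL cells no member passed the test against control KSL cells (limma, 0 of 32 at an adjusted p under 0.05, smallest adjusted p = 0.123), where 0.0172% of all features passed. At an unadjusted p under 0.05 there were 4 of 32 members (Clec4f, Ccr2, Mrc1 and Siglec1) and 1725 of 23231 features. The median difference of the members was 0.33 and that of all features 0.00, with 22 members positive and 10 negative. In 14 of 32 members both Vav-Etv2 arrays lay above both controls, against 26.2% of all features, and in 0 both lay below, against 25.4%. Clec4f had the smallest adjusted p and is among these 14 and the 4 above. It entered the test only through the 2 arrays in which it is high, so its place there was conditioned on the outcome. Fewer cells of a type and less RNA per cell cannot be told apart in sorted bulk RNA.

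The 2 Vav-Etv2 KSL arrays differed from each other over the list. Replicate 2 lay above both controls in 30 of 32 members, where 38.4% of all features did, and below both in 0, where 37.5% did. Replicate 1 lay above both controls in 14 members, the same 14 genes, where 41.7% of all features did, and below both in 16, where 40.5% did. Those 16 were all 3 C1q genes, both Fc receptors, both lysozymes, both tested iron and haem genes, Spic, Klf4, Cd14, Mpeg1, Emr1, Cd5l and Ms4a7. The median distance from the control mean was -0.01 in replicate 1 and 0.69 in replicate 2. Several marker lists of other cells, and the handling stress genes, also differed between the 2 arrays, though not all in the same direction. B cell genes, and dendritic cell and MHC class II genes, summed above both controls in each of the 2 arrays. Handling stress, erythroid, T and NK cell, and stem and progenitor genes summed below both controls in each. The summed signal of 13 neutrophil genes, in multiples of the 75th percentile, was 226 in replicate 1 and 1750 in replicate 2, against 1710 and 1620 in the controls. The summed signal of 6 B cell genes was 34.9 and 63.2, against 20.1 and 19.8, and that of 6 endothelial genes 44.0 and 11.9, against 14.9 and 10.4. Mast cell, basophil and eosinophil genes summed to 8.08 and 30.8, against 16.9 and 18, megakaryocyte genes to 131 and 34.5, against 57.9 and 70.4, and handling stress genes to 139 and 235, against 333 and 308. All 13 neutrophil, 6 B cell and 6 endothelial markers were well above background in both Vav-Etv2 arrays. In the control KSL arrays so were 13 and 13 neutrophil, 5 and 5 B cell, and 5 and 6 endothelial markers. The part of these cells in the members' differences was not tested.

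**Figure D1:**
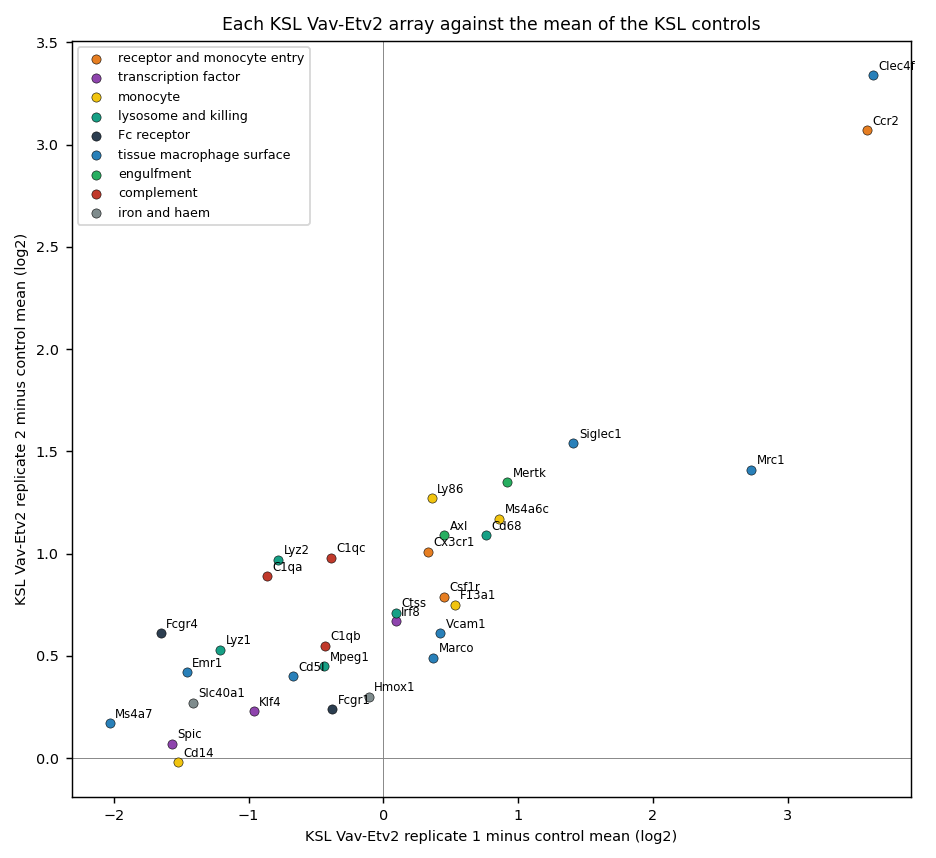
Log2 difference of each tested member from the mean of the control KSL arrays, in Vav-Etv2 KSL replicate 1 (x axis) and replicate 2 (y axis), with points coloured by role. Ccr2 sits over 3 log2 units from the controls in both arrays, Clec4f is drawn against control signals not well above background, and 16 members lie below both controls in replicate 1 where 0 do in replicate 2.

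Ccr2, the receptor for the chemokine Ccl2 through which monocytes leave the marrow, stood at 3.66 and 3.14 in Vav-Etv2 KSL arrays and at -0.07 and 0.20 in control KSL arrays. Its groups were well apart, 10.1-fold on average, and the difference did not pass the test (log2 difference 3.33, SE 1.10, limma adjusted p = 0.546). The shared spread that this SE rests on includes the Gr arrays, in which Ccr2 differed by up to 3.38 between replicates. Fitted on the 4 KSL arrays alone, the limma adjusted p was 0.103. Csf1r, the receptor for the macrophage growth factor Csf1, stood at 4.68 and 5.02 against 4.18 and 4.28 in controls, a difference of 0.62 (SE 0.30, limma adjusted p = 0.796). Cx3cr1, the fractalkine receptor of patrolling monocytes, stood at 2.03 and 2.71 against 1.46 and 1.93 in controls. For all 3 receptors the Vav-Etv2 arrays lay above the controls.

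Clec4f, the lectin of liver Kupffer cells, was read by 1 probe (mm9 chr6:83595281-83595339). It stood at -2.41 and -2.69 in Vav-Etv2 KSL arrays, both well above background, and at -5.85 and -6.22 in control KSL arrays, where neither was. For a gene with no array of the dimmer group well above background, only a bound on the fold exists, computed with its dim signals raised to each array's lowest signal that was. With the main processing Clec4f was thus at least 3.04-fold higher in the Vav-Etv2 group. Such bounds are for that processing and need not hold under another background correction. Clec4f had a fitted log2 difference of 3.48 (SE 0.50), which did not pass (limma adjusted p = 0.123). It entered the test only through the 2 arrays in which it is high. Both scalings that moved it past the threshold left its size alone, with 3.53 under median scaling (limma adjusted p = 0.0415) and 3.42 under quantile normalization (0.0111). Its size rests on signals near background: the difference was 1.60 with the floor and 0.65 (limma adjusted p = 1.00) with the normexp background correction.

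Mrc1, the mannose receptor of tissue macrophages and of some endothelia, stood at 0.59 and -0.74 in Vav-Etv2 KSL arrays and at -2.17 and -2.11 in controls. The difference was 2.07, 4.19-fold, and did not pass (SE 0.70, limma adjusted p = 0.555). It was 1.27 with the normexp correction. The median of the 6 endothelial markers stood beside it at 2.64 and -1.02, against -1.52 and -1.53 in controls, and its part in Mrc1 was not tested. Siglec1, the sialic acid receptor of marrow and lymph node macrophages, stood at -2.93 and -2.80 against -4.07 and -4.61, not well above background, in controls. The gap, at least 2.44-fold, did not pass (log2 difference 1.47, SE 0.60, limma adjusted p = 0.661), and the difference was 0.43 with the normexp correction. Ms4a7, a tetraspanning membrane protein of macrophages, was the most negative member, at -4.39 (not well above background) and -2.19 against -3.04 and -1.68 in controls (-0.93, SE 0.81, limma adjusted p = 0.990). Without Vav-Etv2 KSL replicate 1 its difference was 0.17. Vcam1 stood at 1.05 and 1.24 against 0.62 and 0.64, and the scavenger receptor Marco at -3.09 and -2.96 against -3.46 and -3.45. For those 2 genes the genotypes did not overlap, with differences of 0.51 and 0.43. Emr1 and Cd5l had overlapping groups and differences of -0.52 and -0.13.

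Among monocyte genes, Ms4a6c stood at 1.69 and 2.00 in Vav-Etv2 KSL arrays against 0.78 and 0.88 in controls (1.02, SE 1.05, limma adjusted p = 1.00). Ly86, the partner of a Toll-like receptor homologue, stood at 4.04 and 4.96 against 3.64 and 3.74. F13a1, the clotting factor XIII subunit made by monocytes, stood at 4.51 and 4.72 against 3.86 and 4.10. These 3 did not overlap between genotypes, while Cd14, the co-receptor for bacterial lipopolysaccharide, stood at -1.17 and 0.33 against 0.40 and 0.31. The lysosomal protein Cd68 stood at -1.89 and -1.56 against -2.45 and -2.84 (0.92, SE 0.54, limma adjusted p = 0.881). The other 4 lysosome and killing genes overlapped, with differences from -0.34 (Lyz1) to 0.40 (Ctss). Both Fc receptors, all 3 transcription factors, all 3 C1q genes and both tested iron genes overlapped as well, with differences from -0.75 (Spic) to 0.38 (Irf8). Mertk and Timd4, receptors for dying cells, were not well above background in any KSL array. Axl, a receptor of the same kinase family as Mertk, stood at -0.45 and 0.20 against -0.78 and -1.02 (0.77, SE 0.43, limma adjusted p = 0.859). Cd163, the haemoglobin scavenger receptor, was not well above background on any of the 8 arrays.

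**Figure D2:**
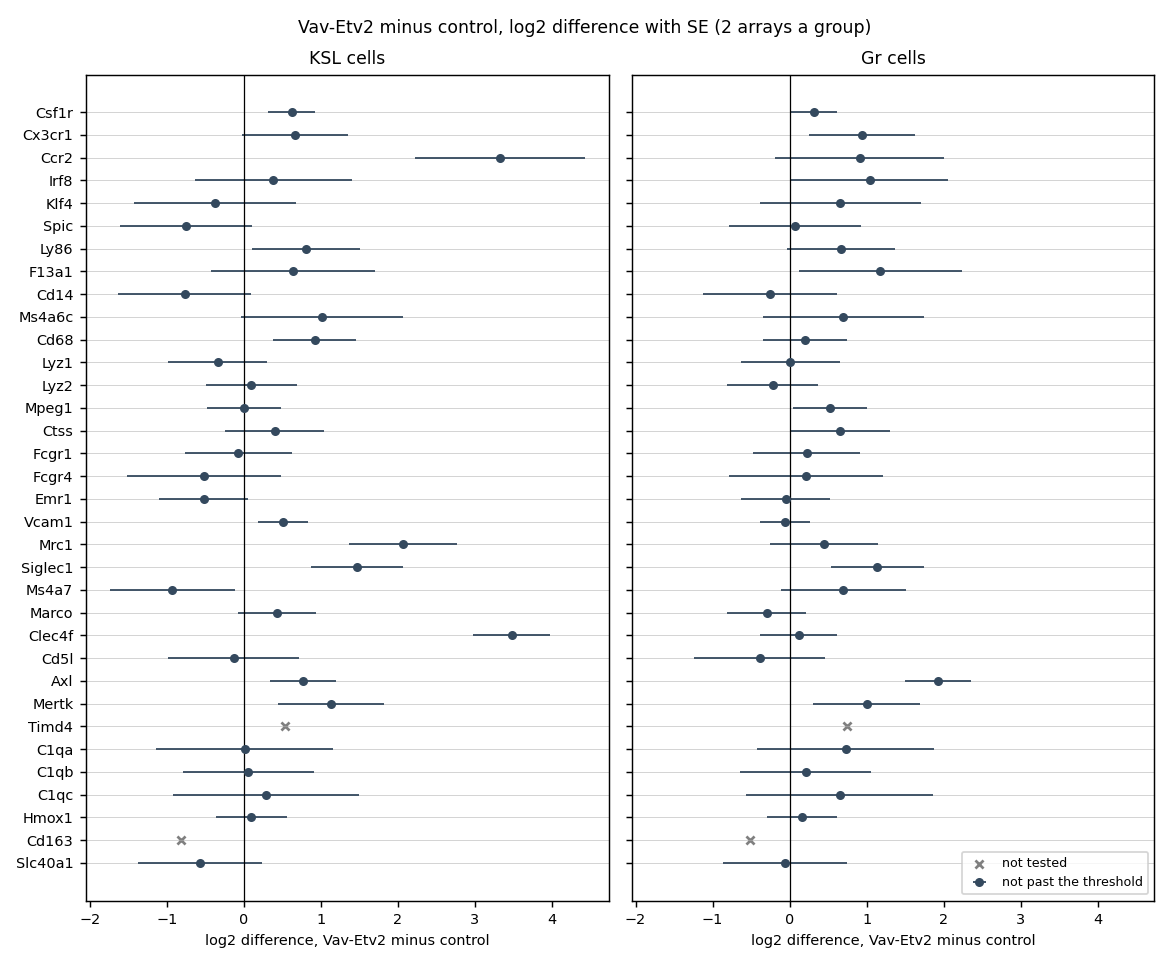
Log2 difference of each member, Vav-Etv2 minus control, in KSL cells (left) and Gr cells (right), with bars of 1 SE and 2 arrays in each group. No member is past the threshold in either cell type, with Ccr2 at 3.33 and Mrc1 at 2.07 in KSL cells and Axl at 1.93 in Gr cells, while the point of Clec4f in KSL cells rests on control signals not well above background.

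In Vav-Etv2 Gr cells no member passed the test against control Gr cells either (limma, 0 of 32, smallest adjusted p = 1.00), where 0.00861% of all features passed. An unadjusted p under 0.05 was reached by 1 of 32 members, Axl, and by 296 of 23231 features. The median difference was 0.39 for the members and -0.01 for all features, with 25 members positive and 7 negative. Both Vav-Etv2 arrays lay above both controls in 2 members, Axl and Mertk, against 5.83% of all features, and below both in 0, against 5.79%.

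Axl, which binds the bridging protein Gas6 on dying cells, was read at mm9 chr7:26542541-26542600. It stood at 2.67 and 2.05 in Vav-Etv2 Gr arrays and at 0.88 and -0.02 in control Gr arrays. The 3.81-fold gap did not pass the test (log2 difference 1.93, SE 0.43, limma adjusted p = 1.00). Within replicate number 1 the difference was 1.79 and within number 2 it was 2.07. Leaving out the array labelled Gr control 2 gave 1.48 (limma adjusted p = 0.513), and leaving out Gr control 1 gave 2.38 (0.998). Mertk stood at -1.81 and -3.42 against -3.45 and -3.77 in controls, all 4 well above background (1.00, SE 0.69, limma adjusted p = 1.00). Its difference was 0.20 without Gr Vav-Etv2 1 and 1.80 without Gr Vav-Etv2 2. Timd4, a phosphatidylserine receptor of resident macrophages, was well above background on 1 of the 8 arrays, Gr Vav-Etv2 replicate 1, where it stood at -2.47.

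The members next in size had wide gaps between replicates in Gr cells. F13a1 stood at 6.52 and 8.03 in Vav-Etv2 and at 4.38 and 7.83 in control Gr arrays (1.18, SE 1.06, limma adjusted p = 1.00). Siglec1 stood at -0.21 and -1.83 against -1.66 and -2.67 (1.14, SE 0.60). Irf8, the transcription factor that commits progenitors to monocytes, stood at 4.35 and 5.89 against 2.47 and 5.68 (1.04, SE 1.02). In each of these the groups overlapped and the lowest or highest value belonged to control replicate 1 or Vav-Etv2 replicate 1. Cx3cr1 stood at 3.43 and 4.82 against 2.33 and 4.04, Ccr2 at 3.21 and 5.16 against 1.59 and 4.97, and C1qa at 1.92 and -1.34 against 0.48 and -1.37. Leaving out single Gr arrays gave 0.34 to 1.95 for Siglec1 and 0.09 to 1.79 for Cx3cr1. Without Gr control 1 the differences were -0.55 for F13a1, -0.57 for Irf8 and -0.78 for Ccr2. That of C1qa was -0.90 without Gr Vav-Etv2 1 and -0.19 without the array labelled Gr control 2. Without Gr Vav-Etv2 2 that of Ccr2 was -0.07. The other 24 tested members had differences from -0.39 (Cd5l) to 0.70 (Ms4a6c and Ms4a7).

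Whether the transgene's difference varied between cell types was tested directly. No member passed (limma, 0 of 32 at an adjusted p under 0.05), where 0.0043% of all features passed. For Clec4f the fitted KSL difference exceeded the Gr difference by 3.36 (SE 0.71, limma adjusted p = 0.957), a size that rests on 6 of 8 arrays not well above background. In Gr cells Clec4f was not well above background on any array, at -5.70 and -6.63 in Vav-Etv2 and -5.68 and -6.89 in control cells. For Ccr2 the gap was 2.42 (SE 1.56) and for Axl -1.16 (SE 0.61), both with a limma adjusted p of 1.00.

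In each genotype 30 of 32 members had a positive difference between Gr and KSL cells. In control cells 15 of 32 members rose in Gr cells (limma, adjusted p under 0.05), where 18.5% of all features did, and 0 fell, where 16.2% did. In Vav-Etv2 cells 15 rose, where 13.8% of all features did, and 1, Clec4f, was called lower, where 10.4% were. Clec4f and, among the 15 in control cells, Mertk entered the test only through the cells in which they are high, so these calls were conditioned on the outcome. The median member difference was 2.09 in Vav-Etv2 and 2.11 in control cells, against 0.10 and 0.13 over all features. Of the members called, 12 were shared, which is 75% of those called in Vav-Etv2 and 80% of those in control cells. Median scaling moved the median over all features to 0.24 in Vav-Etv2 and 0.30 in control cells. It gave 4978 higher and 2791 lower features in control cells, in place of 4297 and 3772. In Vav-Etv2 cells it gave 3776 higher and 1940 lower features, in place of 3211 and 2423. The members called then numbered 18 in each genotype. Leaving out single arrays changed these counts. The shares of all features called in those smaller fits are not given, so their counts are not read as a result about the members. Whichever array was left out, the differences of Csf1r, Emr1, Hmox1 and Lyz2 stayed at 1.90 or more in both genotypes.

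**Figure D3:**
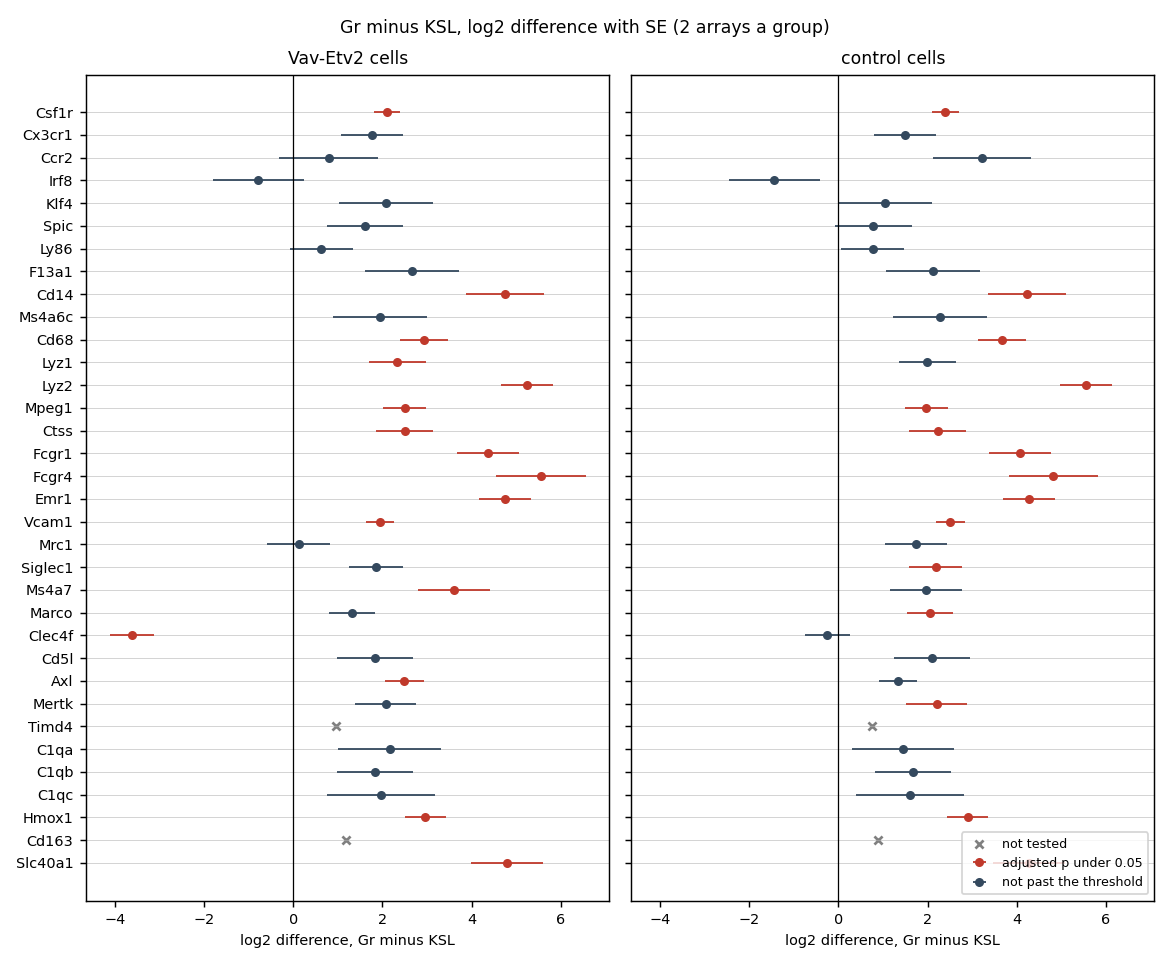
Log2 difference of each member, Gr minus KSL, in Vav-Etv2 cells (left) and control cells (right), with bars of 1 SE, 2 arrays in each group, and red for members past an adjusted p of 0.05. Lyz2, Fcgr4, Slc40a1, Emr1, Cd14 and Fcgr1 are over 4 log2 units higher in Gr cells of both genotypes, and Clec4f, at the far left in Vav-Etv2 cells, was not well above background on any Gr array.

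The lysosome and killing genes rose together. Lyz2, the lysozyme of macrophages and granulocytes, stood at 8.57 and 8.97 in Gr against 2.66 and 4.41 in KSL Vav-Etv2 arrays, and at 9.35 and 8.63 in Gr against 3.32 and 3.55 in KSL control arrays. It was 37.7-fold higher in Vav-Etv2 cells (log2 difference 5.24, SE 0.59, limma adjusted p = 0.00295) and 46.9-fold higher in control cells (5.55, SE 0.59, 0.00186). Its neighbour and near copy Lyz1 passed in Vav-Etv2 cells (2.33, SE 0.64, limma adjusted p = 0.0405) and stood just short in control cells (1.99, 0.0512). Signal from such copies can cross between probes. Cd68 was 7.64-fold and 12.6-fold higher in Vav-Etv2 and control cells, at 0.60 and 1.82 against -1.89 and -1.56, and at 0.44 and 1.59 against -2.45 and -2.84. The pore-forming Mpeg1 stood at 6.70 and 7.51 against 4.16 and 5.05 in Vav-Etv2 cells, and at 6.12 and 7.03 against 4.58 and 4.63 in control cells. The protease Ctss stood at 6.15 and 7.22 against 3.87 and 4.50 in Vav-Etv2 cells, and at 5.15 and 6.90 against 3.62 and 3.95 in control cells. Both passed in each genotype, with differences from 1.97 to 2.50.

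Both Fc receptors were far higher in Gr cells. Fcgr4, an activating receptor for antibody, stood at 5.84 and 3.67 in Gr against -1.92 and 0.34 in KSL Vav-Etv2 arrays (46.7-fold, limma adjusted p = 0.0108), and at 5.41 and 3.69 against -0.29 and -0.26 in control arrays (28.3-fold, 0.0135). Fcgr1, the high-affinity receptor, stood at 0.66 and 1.59 against -3.55 and -2.93 in Vav-Etv2 arrays, and at -0.16 and 1.97 against -3.13 and -3.20 in control arrays. Its folds were 20.6 (limma adjusted p = 0.00756) and 16.8 (0.00749). Cd14 stood at 5.18 and 3.49 against -1.17 and 0.33 in Vav-Etv2 arrays, and at 5.63 and 3.55 against 0.40 and 0.31 in control arrays. That made it 27-fold and 18.8-fold higher (limma adjusted p = 0.0113 and 0.0133).

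Of 8 tissue macrophage surface genes 3 rose in Vav-Etv2 and 4 in control cells, of 3 receptors of monocyte entry and survival 1 rose in each, and both tested iron and haem genes rose in each. Emr1, now named Adgre1 and the classic surface antigen of mouse macrophages, stood at 2.73 and 3.02 in Gr against -2.81 and -0.93 in KSL Vav-Etv2 arrays, and at 2.92 and 2.92 against -1.51 and -1.19 in control arrays. It was 26.8-fold (limma adjusted p = 0.00380) and 19.3-fold (0.00379) higher. Vcam1 stood at 3.42 and 2.75 against 1.05 and 1.24, and at 3.16 and 3.13 against 0.62 and 0.64, and Csf1r at 6.75 and 7.16 against 4.68 and 5.02, and at 6.49 and 6.78 against 4.18 and 4.28, Vav-Etv2 before control. Both passed in each genotype, between 3.83-fold and 5.71-fold. The iron exporter Slc40a1 stood at 5.43 and 3.77 in Gr against -1.04 and 0.65 in KSL Vav-Etv2 arrays, and at 5.43 and 3.89 against 0.28 and 0.47 in control arrays, which is 27.7-fold and 19.5-fold. Hmox1, which breaks down haem, was 7.80-fold higher in Vav-Etv2 cells, at 4.27 and 3.21 against 0.57 and 0.98, and 7.46-fold higher in control cells, at 3.98 and 3.18 against 0.71 and 0.65. In all 5 genes every Gr array lay above every KSL array.

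The calls that the genotypes did not share were 4 in Vav-Etv2 and 3 in control cells. Clec4f in Vav-Etv2 Gr cells lay at least 3.34-fold below Vav-Etv2 KSL cells, and in control cells no array of either type was well above background. Axl rose in Vav-Etv2 cells (2.49, SE 0.43, limma adjusted p = 0.00961) and stood at 1.33 in control cells (0.0529). Ms4a7 rose by 3.60 in Vav-Etv2 cells, at 0.80 and -0.18 against -4.39 and -2.19 (limma adjusted p = 0.0217), and stood at 1.97 in control cells (0.0982), at -0.10 and -0.68 against -3.04 and -1.68. Lyz1 was the other in Vav-Etv2 cells. Siglec1 rose at least 3.98-fold in control cells (limma adjusted p = 0.0316) and Marco 4.14-fold (0.0243), and the Vav-Etv2 differences were 1.85 (0.0638) and 1.32 (0.101). Mertk, well above background on all 4 Gr and on no KSL arrays, was at least 1.46-fold higher in control Gr cells. The difference between genotypes is the interaction above, which none of these 7 passed. Irf8, which progenitors also express, had differences of -0.78 in Vav-Etv2 and -1.44 in control cells, and the 3 C1q genes had differences from 1.45 to 2.16 that did not pass.

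**Figure D4:**
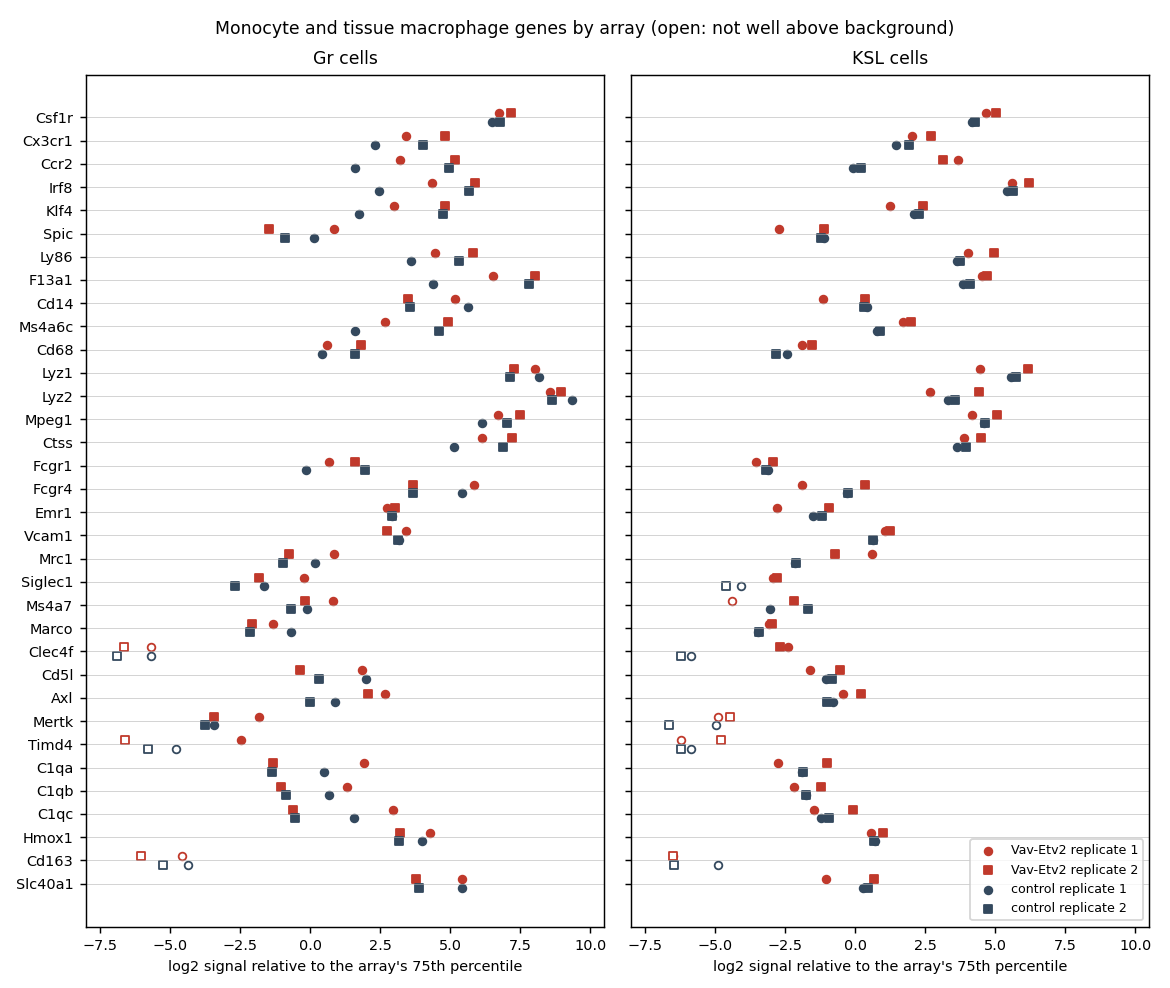
Level of each of the 34 members on each array (x axis, log2 signal minus that of the 75th percentile) in Gr cells (left) and KSL cells (right), red for Vav-Etv2 and dark grey for control, with circles for replicate 1 and squares for replicate 2. The control KSL replicates nearly coincide, while circles and squares separate in Gr cells of both genotypes, and open symbols for Clec4f in Gr cells are not well above background.

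The spread between replicates of the list was widest in Gr cells. The median absolute difference between replicates of the tested members was 0.79 in Vav-Etv2 and 0.19 in control KSL cells, and 1.45 in Vav-Etv2 and 1.49 in control Gr cells. Over all features it was 0.31, 0.19, 0.60 and 0.68 in the same order. In Gr cells the replicate numbers divided the members the same way in both genotypes, a pattern singled out after its values were seen and given without a test. In 10 of 32 members replicate 1 was at least 2-fold above replicate 2 in both genotypes, against 6.75% of all features, and in 9 replicate 2 was at least 2-fold above replicate 1 in both, against 7.42%.

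The 10 members higher in replicate 1 held all 3 complement genes, 3 of 8 tissue macrophage surface genes, and 1 each of the tested Fc receptors, iron genes, transcription factors and monocyte genes. C1qa, C1qb and C1qc, neighbours on mm9 chromosome 4 that encode the chains of complement C1q, differed by 3.26, 2.37 and 3.56 between Vav-Etv2 replicates and by 1.85, 1.55 and 2.09 between control replicates. C1qc stood at 2.95 and -0.61 in Vav-Etv2 and at 1.56 and -0.53 in control Gr arrays, where its 10 repeat spots had an SD of at most 0.100. The red pulp and marrow macrophage factor Spic stood at 0.85 and -1.47 in Vav-Etv2 and at 0.14 and -0.91 in control Gr arrays. Cd5l, a secreted lipid-binding protein of macrophages, stood at 1.86 and -0.35 in Vav-Etv2 and at 1.98 and 0.31 in control Gr arrays. Slc40a1, Siglec1, Mrc1, Fcgr4 and Cd14 made up the rest, with differences from 1.01 to 2.16.

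The 9 members higher in replicate 2 held 3 of 4 monocyte genes, 2 of 3 receptors, 2 of 3 transcription factors and 2 of 5 lysosome and killing genes. A further 12 monocyte genes outside the members did not divide this way, with medians of 0.55 in Vav-Etv2 and 0.73 in control cells and 2 genes past 2-fold in each direction. Ccr2 differed by 1.95 in Vav-Etv2 and 3.38 in control cells between the replicate numbers, as absolute values of -1.95 and -3.38 when replicate 2 is subtracted from replicate 1. On that scale Irf8 stood at -1.54 and -3.22, Klf4 at -1.85 and -3.01 and Ms4a6c at -2.23 and -2.99. F13a1 stood at -1.51 and -3.45, and Cx3cr1, Ly86, Cd68 and Ctss between -1.75 and -1.07. Csf1r, Emr1, Vcam1, Lyz2 and Mpeg1 differed by under 1 between the replicates of each genotype.

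**Figure D5:**
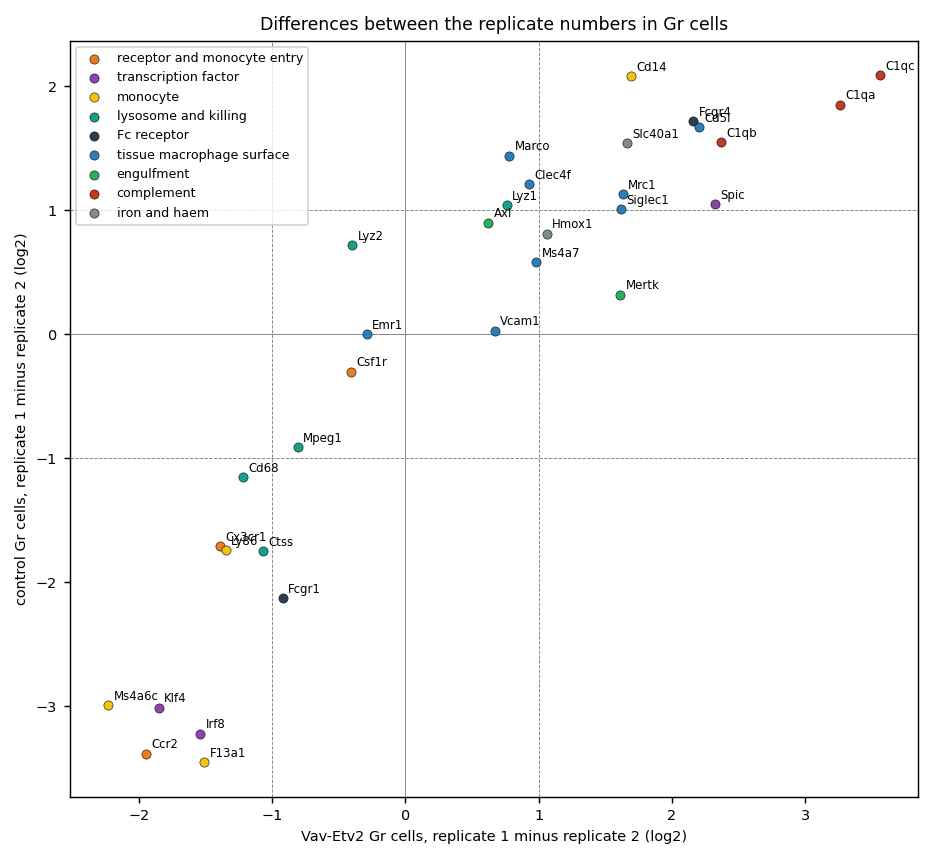
Log2 difference between replicates 1 and 2 of each tested member in Vav-Etv2 Gr cells (x axis) and control Gr cells (y axis), coloured by role, with dashed lines at a 2-fold difference. The C1q genes lie at the top right and Ccr2, Irf8, Klf4, F13a1 and Ms4a6c at the bottom left in both genotypes.

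Other measures followed the same numbers. Xist, expressed from the inactive X chromosome of females, stood at 0.35 and -6.82 in Vav-Etv2 and at 0.27 and -7.10 in control Gr arrays, and the signal at the 75th percentile stood at 149 and 272 in Vav-Etv2 and at 136 and 300 in control arrays. Replicate number, sex and signal cannot be told apart there. On the KSL arrays Xist stood between 2.12 and 2.69. The comparisons of Gr with KSL cells thus also set arrays of unlike Xist level against each other, and the part of sex in them was not tested. Primary granule genes were lower in replicate 1, with a median difference over 6 genes of -2.04 in Vav-Etv2 and -2.69 in control cells, and so were 7 mast cell, basophil and eosinophil genes (-3.92 and -3.83). Neutrophil genes were higher in replicate 1 (0.96 and 1.32 over 13), as were B cell (2.80 and 1.10 over 6), erythroid (1.45 and 1.61 over 5), stroma (0.80 and 1.14 over 4) and handling stress genes (1.30 and 1.15 over 5). The 9 dendritic cell and MHC class II genes had medians of -0.01 and -0.03. Neutrophil markers were well above background for 13 of 13 genes on all Gr arrays, with summed signals of 10700 and 5510 in Vav-Etv2 and 12600 and 5510 in control cells. Their part in the members' split was not tested.

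Another 77 genes of the same biology, listed with earlier results of these data known, gave 71 tested features. In Vav-Etv2 against control KSL cells 0 of 71 passed, with a median of 0.02. The largest differences were those of Lyve1 (2.96), Stab1 (2.95) and Folr2 (2.89, limma adjusted p = 0.204), all of them known in macrophages and the first 2 also in endothelium. Stab1, a scavenger receptor, stood at 1.17 and -0.80 in Vav-Etv2 and at -2.80 and -2.71 in control KSL arrays (SE 0.88, limma adjusted p = 0.467). Spi1, which encodes the ETS factor PU.1 of myeloid cells, stood at 0.12 and 0.31 against -0.32 and -0.06 (0.41, limma adjusted p = 0.978). In Gr cells 1 of 71 rose in Vav-Etv2, the folate receptor gene Folr2 (limma adjusted p = 0.0474), and the median was 0.16. Folr2 was the only feature of the 23231 called higher there. It stood at 0.24 and 0.81 in Vav-Etv2 Gr arrays and at -6.11 and -7.25 in control Gr arrays. The lowest signals well above background on those control arrays were -3.8 and -5.58, so the size of the gap rests on dim control signals. With the normexp correction 0 features were called in that comparison, Folr2 included. Between cell types 45 rose and 3 fell in Gr of Vav-Etv2 mice (median 2.13), where 13.8% and 10.4% of all features did. In Gr of control mice 40 rose and 3 fell (median 1.91), where 18.5% and 16.2% of all features did. Among those that rose in control Gr cells were Spi1 (3.06, limma adjusted p = 0.00190), the myeloid factor Cebpb (3.40, 0.00539) and the growth factor Csf1 (1.79, 0.0347).

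Members with further probes were compared across them. Of the 34 members 8 had more than 1 probe, with 9 further probes in all. In the cell type comparisons every further probe was positive, as was the probe used, and the second Siglec1 probe was not well above background on any array. In KSL cells the further probes of Csf1r had differences of 1.23 and 0.61 beside 0.62 for the probe used, and that of F13a1 1.41 beside 0.64. The second Siglec1 probe had -0.98 there, of opposite sign to the probe used. Further probes of the other members lay between -0.45 (Emr1) and 1.04 (Vcam1).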

How the data were processed

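The scanner files that the authors deposited hold spot intensity. Per the file headers, they come from version 10.7.3.1 of Agilent's Feature Extraction software, on build mm9. The processed signal that the authors deposited is background-subtracted and spatially detrended intensity, not normalised between arrays. Further deposited columns mark each spot as an outlier, a control, saturated or well above background (other values). A table of log2 values, also deposited by the authors, matched the signals after the same scaling and a centring of probes separately in KSL and Gr arrays (99.8% of values within 0.01 log2), so it served within a cell type only.

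Of 62976 spots 59305 were not controls and gave 55681 probes. Outlier spots were removed, log2 values of repeat spots averaged, and the 75th percentile over an array's probes subtracted. Probes well above background on fewer than 2 of 8 arrays were left out, and the brightest stood for its gene. All 8 arrays and 23231 features entered 1 fit of 4 group means in limma 3.58.1 (lmFit, eBayes) in R 4.3.3, with 4 residual and 2.77 prior degrees of freedom, and p-values were adjusted over all features by Benjamini and Hochberg's method. SE is limma's moderated standard error. The code was tested on simulated data. Values were given for every member called, then for the 8 tested members with the largest difference in each Vav-Etv2 comparison, then for those whose groups did not overlap, and the rest as ranges. The members, the marker lists and the list of other macrophage genes were chosen with earlier results of these data known. The number of arrays limits the precision. Alternatives were other scalings, a floor, other filters, the mean of a gene's probes, an intensity trend, a replicate block, fits of 2 groups, the value table and leaving out each array. Another alternative was the normexp background correction with an offset of 50.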

Additional observations from a re-analysis of the deposited data

How the results depend on the processing

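The counts of members past the threshold in the Vav-Etv2 comparisons and the interaction were 0 under every alternative run, except that 1 member, Clec4f, was called in KSL cells under median scaling and quantile normalization. The median member difference in KSL cells lay between 0.15 and 0.38 under the alternatives that keep all arrays and between -0.11 and 0.67 with single arrays left out, -0.11 without KSL Vav-Etv2 2. In Gr cells it lay between 0.27 and 0.42, and between 0.15 and 0.45 with single arrays left out. Between cell types it stayed positive, from 1.84 to 2.69 in Vav-Etv2 and from 1.77 to 2.38 in control cells. Between cell types the replicate block called 18 members in each genotype, and a replicate block within each cell type, added after seeing the data, called 26 in each. The shares of all features called with these blocks, or with single arrays left out, are not given. Such counts are therefore not read as a result about the members. Which calls the genotypes shared depended on the block. The replicate block left out Lyz1 in Vav-Etv2 cells and called Siglec1 and Mertk in both genotypes. The block within each cell type called Axl, Lyz1, Ms4a7, Siglec1 and Marco in both, and C1qb and C1qc too. Same-numbered deviations correlated at 0.0681 in KSL and 0.658 in Gr cells between genotypes. Between cell types they correlated at -0.0556 in Vav-Etv2 and 0.133 in control mice. In Gr cells the replicate numbers thus marked a split that both genotypes shared, and the main fit left it in the spread. Because the correlations elsewhere were low, the numbers were not taken to pair the samples in the main fit. Leaving out single arrays gave 6 to 20 members in Vav-Etv2 Gr against KSL cells and 6 to 15 in control Gr against KSL cells. These fits have fewer arrays, and where a group keeps 1 array it is assumed to vary like the others. Signs turned for Mertk in KSL cells with the floor (-0.25, from signals under background), and with single arrays left out for Ms4a7 in KSL cells (-2.03 to 0.17), and in Gr cells for Ccr2 (-0.78 to 2.60), F13a1 (-0.55 to 2.90), Irf8 (-0.57 to 2.65) and C1qa (-0.90 to 2.36). Why these turned was not tested. Clec4f was not tested without either Vav-Etv2 KSL array or with the filter on all 8 arrays, since too few arrays were then well above background. Members near background, such as Clec4f, Siglec1 in control KSL cells, Mertk and Timd4, are limited by signal.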
